A study of Mus musculus with 24 samples.

Results

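Adipocyte marker and adipokine genes were followed in mouse skeletal muscle through 9 of the 18795 genes in the deposited table: Adipoq, Cfd, Retn, Lep, Plin1, Cidec, Adig, Fabp4 and Pparg. Each was taken by its symbol and matched 1 gene. The genes were chosen by measured values of these libraries: adipocyte genes had weighed on the young side of the second principal component, and their levels varied between libraries. Differences between old and young mice and the spread between libraries are therefore given as a description: no p is printed for them, and the counts of calls printed beside the share of all genes called carry no weight. The effects of exercise and of the muscle were tested.

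RNA was sequenced from the soleus (SOL), a muscle rich in slow-twitch fibers, and the gastrocnemius (GAS), which is mostly fast-twitch, of male mice (C57BL/6 is the strain named). The 4 groups were old exercised (OE), old control (OC), young exercised (YE) and young control (YC). Old mice were labelled 84 weeks old and young mice 9 weeks old, and exercised mice ran on a treadmill for 4 weeks. Each group had 3 mice and gave 3 libraries per muscle, 24 libraries in all. A library is whole muscle with every cell type in it, so fewer adipocytes and less RNA per adipocyte cannot be told apart, and whether fat around the muscle was trimmed is not given in the sources used here.

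White adipocytes keep triglyceride in 1 large droplet and release hormones that act on liver, brain and muscle. In skeletal muscle they lie between the fibers and along the fascia, and can arise from fibro-adipogenic progenitors, the mesenchymal cells of the muscle interstitium. Among the 9 genes, Adipoq (adiponectin), Lep (leptin), Retn (resistin) and Cfd (adipsin, the protease complement factor D) encode secreted proteins. Plin1 and Cidec coat the lipid droplet and control its breakdown and its growth, Adig (adipogenin) is a small membrane protein of adipocytes, Fabp4 carries fatty acids in adipocytes and also in capillary endothelium and macrophages, and Pparg is the nuclear receptor that drives adipocyte differentiation.

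Promoter sequences of 8 of the 9 genes were found in RefSeq (build GRCm38.p6), all but Fabp4, and 4 of them are shown: Adipoq, Retn and Lep, whose levels moved together across the libraries, and Adig, whose level did not follow them. Each run holds the 250 bases before the annotated start, 5′ to 3′ on the strand of the gene. Capitals mark matches, on either strand, to TTNNGNAA, a loose form of the site bound by C/EBP factors, and to AGGTCA, the core motif of nuclear receptors such as the product of Pparg.
Adipoq, chr16:23146286-23146535, plus strand: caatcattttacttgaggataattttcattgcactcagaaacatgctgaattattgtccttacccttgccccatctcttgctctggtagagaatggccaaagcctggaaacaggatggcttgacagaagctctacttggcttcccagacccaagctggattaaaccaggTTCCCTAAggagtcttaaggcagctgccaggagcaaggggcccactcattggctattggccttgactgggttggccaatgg
Retn, chr8:3655520-3655769, plus strand: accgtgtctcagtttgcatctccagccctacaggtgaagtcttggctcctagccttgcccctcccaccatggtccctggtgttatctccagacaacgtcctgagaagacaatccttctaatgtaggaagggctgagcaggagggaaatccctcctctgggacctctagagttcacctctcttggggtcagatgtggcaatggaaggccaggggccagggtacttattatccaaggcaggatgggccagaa
Lep, chr6:29059971-29060220, plus strand: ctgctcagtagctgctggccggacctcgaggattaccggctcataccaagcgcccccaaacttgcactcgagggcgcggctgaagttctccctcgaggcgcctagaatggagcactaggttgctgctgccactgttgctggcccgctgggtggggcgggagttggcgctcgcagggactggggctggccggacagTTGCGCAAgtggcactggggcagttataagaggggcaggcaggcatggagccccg
Adig, chr2:158502362-158502611, plus strand: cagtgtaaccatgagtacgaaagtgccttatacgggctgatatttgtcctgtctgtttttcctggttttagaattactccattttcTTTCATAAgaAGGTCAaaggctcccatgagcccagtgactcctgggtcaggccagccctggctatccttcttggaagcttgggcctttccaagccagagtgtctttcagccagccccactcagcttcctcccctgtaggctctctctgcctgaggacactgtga
Cidec and Pparg have more than 1 annotated start, so the 8 genes have 11 windows. TTNNGNAA was found in 7 of the 11 windows, which belong to 6 genes, and in 36.8% of 32851 promoter windows of the same length. AGGTCA was found in 3 of the 11, before Adig and before 2 starts of Pparg, and in 14% of all windows. TATAAA, the core of the TATA box, was found in 1 of the 11, before a start of Pparg, and in 12.4% of all windows. No match overlapped another, and the windows before Cfd and Retn held none of the 3 motifs. The match before Adipoq lay 81 bases from the start, that before Lep 55 bases, and those before Adig 164 (TTNNGNAA) and 154 bases (AGGTCA). A match is a stretch of letters, not evidence of binding.

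The gene bodies lie apart from each other in the genome. In GRCm38.p6, Adipoq (gene ID 11450) spans chromosome 16 from 23146536 to 23157968 on the plus strand, Cfd (11537) chromosome 10 from 79890853 to 79892655 on the plus strand, and Retn (57264) chromosome 8 from 3655770 to 3659818 on the plus strand. Lep (16846), Cidec (14311) and Pparg (19016) are all on chromosome 6, at 29060221 to 29073876, 113424634 to 113435760 (minus strand) and 115360879 to 115490404. Plin1 (103968) is on the minus strand of chromosome 7 from 79721164 to 79732904, Adig (246747) on the plus strand of chromosome 2 from 158502612 to 158508198, and Fabp4 (11770) on the minus strand of chromosome 3 from 10204342 to 10208616. Pparg was the only one of the 9 overlapped by another annotated gene, the antisense Gm44079, and without the counting mode its reads and those of Gm44079 cannot be told apart.

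Levels are given in FPKM, mapped fragments scaled to transcript length and library size, so that genes of different length can be compared. No counts were used here and the depth of each library is unknown. The 10 most abundant genes took 16.1 to 19.4% of the summed FPKM in SOL and 31.7 to 38.3% in GAS, and 10781 to 11213 genes reached 1 FPKM in SOL and 9989 to 10587 in GAS. No 2 libraries held identical values. Markers of the muscle fiber were abundant in every library, with a summed level of 43940 to 64236 FPKM over 10 genes in SOL and 85897 to 103887 FPKM in GAS. All 9 adipocyte genes were above 0 in all 24 libraries and all 9 passed a filter of 1 FPKM in at least 3 libraries. Lep in GAS came closest to 0, with 0.068 FPKM in its lowest library.

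Fabp4 was the most abundant of the 9 genes in both muscles, at 337 ± 101 FPKM in SOL, against 257 ± 66.1 FPKM in GAS (SD, n = 12 libraries each). Cfd followed with 116 ± 84.9 FPKM in SOL, against 81.6 ± 72.3 FPKM in GAS. Adipoq averaged 19.2 ± 12.9 FPKM in SOL, against 12.7 ± 9.19 FPKM in GAS, next to Retn with 16.2 ± 15.0 FPKM in SOL, against 12.3 ± 11.2 FPKM in GAS. In SOL the order went on with Plin1 (12.2 ± 8.87 FPKM), Cidec (11.2 ± 8.23), Adig (7.60 ± 1.79), Pparg (4.54 ± 1.95) and Lep (3.46 ± 2.69). In GAS it went on with Cidec (6.52 ± 5.21 FPKM), Adig (4.63 ± 1.74), Plin1 (4.34 ± 3.25), Pparg (1.91 ± 0.557) and Lep (1.20 ± 0.89). Neighbours in this order overlapped within 1 SD of their means in both muscles, with the exception of Fabp4 and Cfd.

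The level of adiponectin RNA differed widely between muscles of the same group. In SOL, Adipoq was at 13.9, 13.0 and 7.36 FPKM in OE, 8.52, 11 and 14.0 FPKM in OC, 43.6, 27.9 and 26.2 FPKM in YE, and 11.3, 43.0 and 10.5 FPKM in YC. Thus 1 of the 3 YC muscles came close to the highest YE muscle, while the other 2 lay among the old muscles. In GAS, Adipoq was at 5.11, 25.8 and 0.833 FPKM in OE, 3.47, 17.8 and 6.70 FPKM in OC, 9.81, 31.2 and 7.58 FPKM in YE, and 15.8, 17.3 and 10.7 FPKM in YC. The OE muscles alone included the second highest and the lowest of all GAS libraries, and the 4 groups overlapped.

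**Figure D1:**
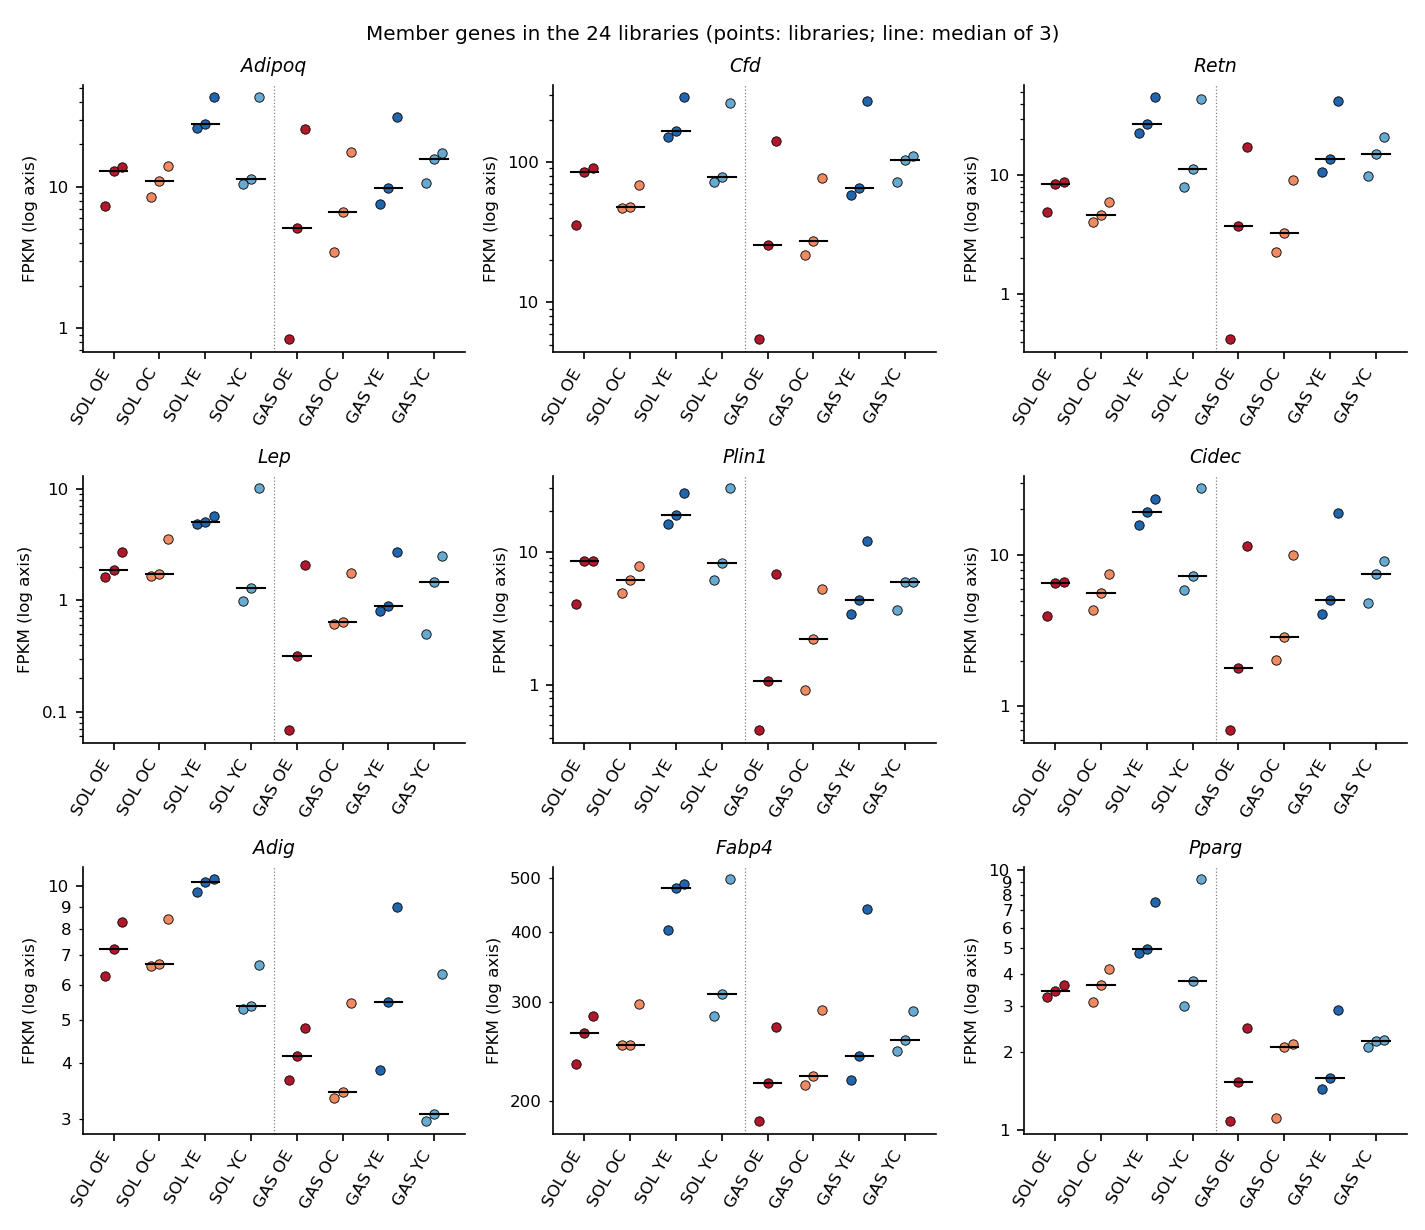
Level of each of the 9 genes in FPKM (log axis) in every library, by muscle and group, with 1 point per library and a line at the median of 3. The points of Adipoq, Cfd, Retn, Lep, Plin1 and Cidec spread widely within a group, from 0.833 to 25.8 FPKM for Adipoq in GAS OE. Those of Adig, Fabp4 and Pparg spread less, though Pparg ran from 2.99 to 9.28 FPKM in SOL YC.

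The spread was largest in GAS. The highest GAS library had 37.4 times the Adipoq level of the lowest, 49.8 times the Cfd level, 99.9 times the Retn level and 40.2 times the Lep level, against 5.92, 8.2, 11.3 and 10.5 times in SOL. For the droplet proteins the ratio was 26.4 in GAS and 7.42 in SOL for Plin1, and 27.4 in GAS and 7.08 in SOL for Cidec. Adig, Fabp4 and Pparg spanned only 3.03, 2.4 and 2.7 times in GAS and 1.97, 2.14 and 3.1 times in SOL. GAS YE replicate 2 was the highest GAS library for all 9 genes, and GAS OE replicate 3 the lowest for 8 of them, all but Adig, which was lowest in GAS YC replicate 2.

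Within groups, the 9 genes varied more than most genes of the table. The SD of the log2 values within groups was 1.07 for Cfd, 0.96 for Adipoq, 0.96 for Retn, 0.86 for Cidec, 0.79 for Plin1 and 0.70 for Lep. Each of these 6 exceeded at least 99.3% of the 10718 genes with a mean log2 value of at least 1, whose median SD was 0.13. Pparg (0.35), Fabp4 (0.28) and Adig (0.27) exceeded 95.3, 92 and 91.3% of them. These are descriptions, since the variation between libraries was among the reasons for choosing the genes.

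The 6 genes with the widest spread varied together. With group means removed, the 15 pairs among Adipoq, Cfd, Retn, Lep, Plin1 and Cidec had a Pearson r of 0.83 to 0.99 over the 24 libraries, with a median of 0.95. Each library gives 1 point to every such r, so the points of different pairs share libraries and mRNA composition. Pairs with Fabp4 had a median r of 0.87 and pairs with Pparg 0.83. Pairs with Adig had r between 0.03 and 0.40, with a median of 0.15, so adipogenin RNA did not track the other adipocyte genes from one library to the next.

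A straight line of each gene on Adipoq, drawn after the levels had been seen, separated the 9 genes in a different way. For Cfd, Lep, Plin1 and Cidec the line reached an Adipoq level of 0 at -15 to 5.66% of the mean level of the gene. For Retn it was at -11% in GAS (-20.8 to 12.3% with 1 library left out in turn) and well below 0 in SOL, at -36.2% (-40.9 to -32.2%). For Fabp4 it reached it at 57.7% of the mean in SOL (55.2 to 59.3%) and 69.8% in GAS (66.4 to 78.2%), equal to 195 and 180 FPKM. For Pparg these values were 40.1% in SOL (37 to 48.2%) and 64% in GAS (58.5 to 67.9%), and for Adig 81.6% in SOL (72 to 85.9%) and 77.1% in GAS (69.1 to 95.8%). The fitted level of these 3 genes at an Adipoq of 0 was thus a large share of their mean. For Adig the line itself was weak, with r = 0.53 in SOL and 0.44 in GAS, against 0.85 to 0.95 for Fabp4 and Pparg. A weak relation by itself places the fitted level near the mean.

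**Figure D2:**
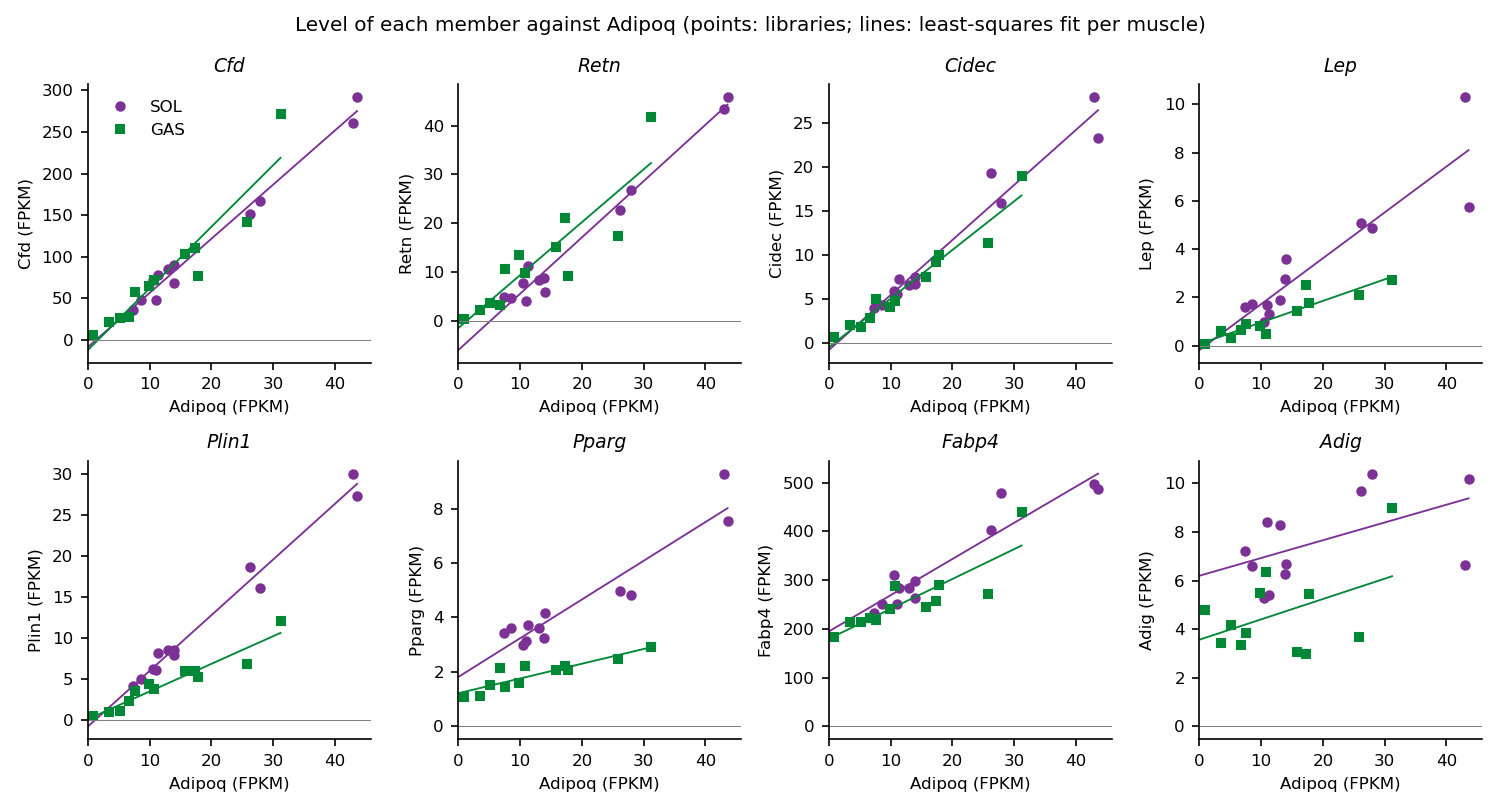
FPKM of each of the other 8 genes against FPKM of Adipoq, 1 point per library, with a least-squares line for SOL and for GAS. The lines of Cfd, Lep, Plin1 and Cidec pass near the origin, that of Retn in SOL starts below it (-5.87 FPKM), those of Fabp4, Pparg and Adig start well above it (195 FPKM for Fabp4 in SOL), and the Plin1 line is steeper in SOL (0.681) than in GAS (0.338).

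The 10 other genes whose group-centred values were most like the mean of the 9 over the 24 libraries, among genes with a mean log2 value of at least 1, were Cdo1 (r = 0.98), Scd1 (0.97), Prkar2b (0.97), Ifi27l2a (0.96), Tmem45b (0.96), Lgals12 (0.95), Cyp2f2 (0.95), Hacd2 (0.94), Slc7a10 (0.94) and Cyp2e1 (0.93). Scd1, a fatty acid desaturase, was the most abundant of them, with 6.63 FPKM in its lowest library, a median of 59.7 and 414 FPKM in its highest. Cdo1, which degrades cysteine, had 0.544, 4.78 and 23.5 FPKM at the same points. Lgals12, a galectin of lipid droplets, had 0.0332, 1.15 and 5.42 FPKM. Of these 10, 7 were also among the 10 most like the 9 genes in GAS alone and 3 in SOL alone.

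Gene lists for neighbouring functions followed the 9 genes to different degrees. The mean of 27 other adipocyte genes had r = 0.94 with the mean of the 9 over the 24 libraries with group means removed, and 20 genes of fatty acid and triglyceride synthesis had r = 0.80. Taken singly, 16 of the 27 and 12 of the 20 exceeded 0.5, so not every gene of these lists followed. The mean of the 11 receptors of the hormones and complement targets of adipsin had r = 0.61, but only 3 of these genes exceeded 0.5. They were Cfb (0.76), Cap1 (0.55) and C3 (0.54), against 0.44 for Adipor2, 0.12 for Lepr, -0.13 for Cdh13, -0.18 for Tlr4 and -0.37 for Adipor1. Lists for lipid droplet breakdown (11 genes, r = 0.34) and for brown and beige adipocytes (12 genes, r = 0.25) followed less. Among markers of other cells, r was 0.49 for Schwann cells, 0.40 for fibro-adipogenic progenitors, 0.16 for erythroid cells, 0.14 for endothelium, 0.13 for macrophages, -0.04 for tendon and for lymphocytes, -0.40 for the muscle fiber and -0.42 for epidermis. Ucp1, the uncoupling protein of brown fat, had a median of 0 FPKM in each muscle, with 0.0274 FPKM in the highest SOL library and 0.71 FPKM in the highest GAS library.

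The first tested comparison asked whether the adipocyte genes differ between the slow and the fast muscle. Over all groups, 5 of the 9 genes were higher in SOL than in GAS: Plin1, Lep, Pparg, Fabp4 and Adig. Of all 18795 genes, 28.5% were higher in SOL and 28.5% lower (limma, adjusted p under 0.05), beside 5 and 0 of the 9. Among the 11637 genes past the filter of 1 FPKM, which all 9 pass, 4503 were higher in SOL, a larger share. All 9 fold changes were above 0, and their median log2 fold change was 0.50 while that of all genes was 0.00. The even split of all genes depended on the scaling. Without quantile normalization 75.4% of the 11555 genes called were higher in SOL instead of 50% of 10710. The same 5 adipocyte genes were called with either. Without quantile normalization, however, 8707 of all 18795 genes were higher in SOL instead of 5350, so 5 of 9 lay closer to the share of all genes.

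Plin1, the perilipin of the large lipid droplet, differed most. It had 4.06, 8.32 and 30.1 FPKM in its lowest, median and highest SOL library, against 0.459, 4.02 and 12.1 FPKM in GAS. The ranges overlapped, and the log2 fold change SOL/GAS was 1.06 (SE 0.31, limma adjusted p = 0.00595), a 2.09-fold difference on the scale of log2(FPKM + 1). Lep had 0.98, 2.32 and 10.3 FPKM in SOL, against 0.068, 0.849 and 2.73 FPKM in GAS, and a log2 fold change of 0.68 (SE 0.27, limma adjusted p = 0.0414). That scale understates changes of low genes such as Lep, so the order of Plin1 and Lep is given for it alone. Mean levels were 3.46 FPKM in SOL and 1.20 in GAS for Lep, and 12.2 and 4.34 FPKM for Plin1. The call of Lep lay near the threshold, since Lep passed in only 10 of the 24 fits that left out 1 library, with adjusted p up to 0.0806. In the fits where it did not pass, its log2 fold change was 0.48 to 0.69. With every library kept, it passed under all 7 alternatives.

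Pparg had 2.99, 3.68 and 9.28 FPKM in SOL, against 1.08, 2.08 and 2.91 FPKM in GAS. In FPKM every SOL library thus exceeded the highest GAS library. Such a split between the muscles was not counted over all genes, so nothing is read from it. The normalized log2 values overlapped, at 1.82 in SOL YC replicate 3 and 2.05 in GAS YE replicate 2. The log2 fold change of Pparg was 0.58 (SE 0.14, limma adjusted p = 0.00103). Fabp4 had 233, 291 and 498 FPKM in SOL, against 184, 244 and 440 FPKM in GAS, with 0.42 (SE 0.11, adjusted p = 0.00298). Adig had 5.30, 6.96 and 10.4 FPKM in SOL, against 2.96, 4.01 and 8.98 FPKM in GAS, with 0.34 (SE 0.11, adjusted p = 0.00997). Plin1, Pparg, Fabp4 and Adig were called in all 24 fits that left out 1 library.

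The other secreted proteins and Cidec did not pass. The log2 fold changes SOL/GAS were 0.68 for Cfd (SE 0.41, limma adjusted p = 0.175), 0.50 for Adipoq (SE 0.37, adjusted p = 0.277), 0.50 for Cidec (SE 0.34, adjusted p = 0.228) and 0.21 for Retn (SE 0.37, adjusted p = 0.655). These standard errors exceeded the 0.11 to 0.14 of Pparg, Fabp4 and Adig. Without GAS OE replicate 2, Cfd (0.96, adjusted p = 0.0221) and Cidec (0.70, adjusted p = 0.0485) passed as well.

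Within single groups fewer genes passed. In SOL YE/GAS YE, Pparg (log2 fold change 0.89, SE 0.27, limma adjusted p = 0.015) and Fabp4 (0.62, SE 0.22, adjusted p = 0.0355) were higher in SOL, 2 of 9 beside 17.5% of all genes. Plin1 had the largest value there, 1.41 (SE 0.61, adjusted p = 0.087). None of the 9 passed by limma in SOL YC/GAS YC, SOL OC/GAS OC or SOL OE/GAS OE, where 18.9, 19.6 and 19.6% of all genes were higher in SOL. At an unadjusted limma p under 0.05 the counts were 0, 1 and 0 of 9, against 8432, 8314 and 8493 of all 18795 genes in either direction. With an equal-variance test of each gene, 0 of 9 passed after adjustment in each of these contrasts. Leaving out any of the YE libraries of SOL, or replicate 1 or 4 of GAS YE, ended the call of Pparg, of Fabp4 or of both, with 0 to 4 genes passing over all fits that left out 1 library.

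**Figure D3:**
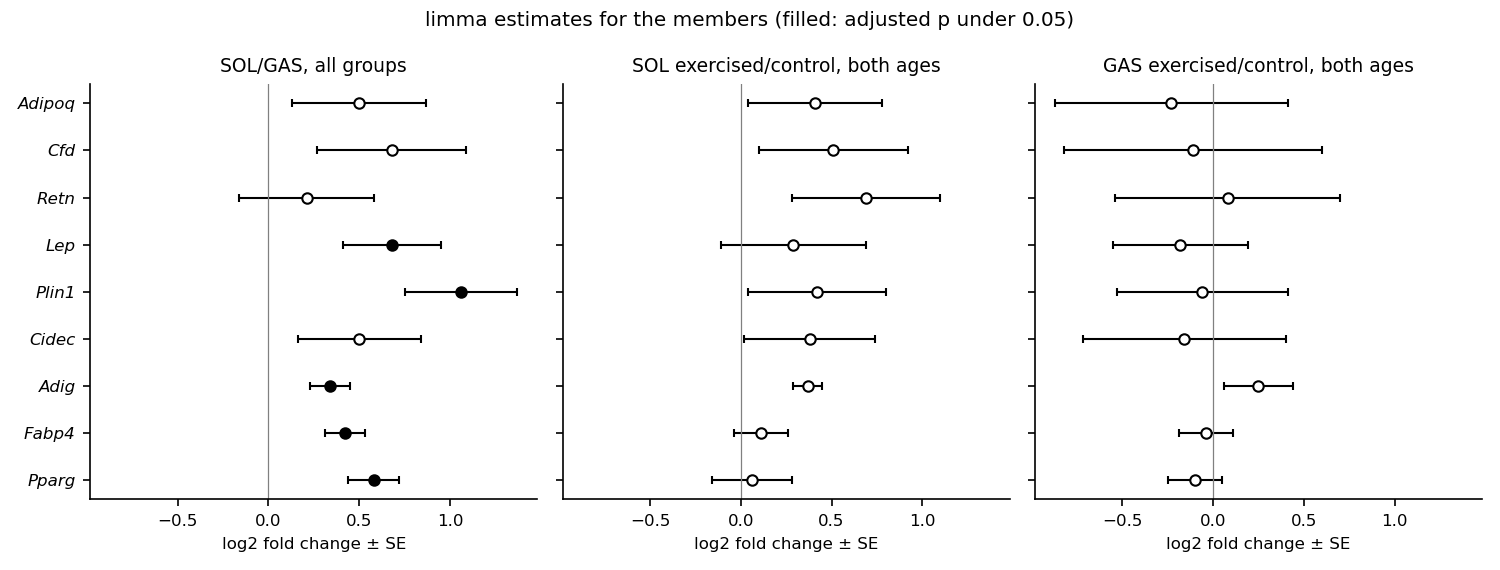
Log2 fold change with standard error (limma) of each of the 9 genes for SOL/GAS over all groups and for exercised/control with both ages together in SOL and in GAS, filled where the adjusted p is under 0.05. For SOL/GAS all 9 points lie above 0 and 5 are filled, for SOL exercised/control all 9 lie above 0 and for GAS exercised/control 2 do, with none filled.

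Other genes of lipid handling were counted beside the 28.5% of all genes that were higher in SOL and the 28.5% that were lower. Of 27 other adipocyte genes, 14 were higher and 2 lower in SOL, among them Npr3, the natriuretic peptide clearance receptor (log2 fold change 3.25, limma adjusted p = 2.02e-16), Lpl, the lipoprotein lipase (2.48, adjusted p = 1.06e-09), Cd36, a fatty acid transporter (1.95, adjusted p = 1.23e-10), and Gpd1, the glycerol 3-phosphate dehydrogenase, which was lower (-3.13, adjusted p = 7.42e-14). Lpl, Cd36 and Gpd1 are also genes of muscle fibers or of vessels, and each differed far more than the 9 genes did. Of 11 genes of lipid droplet breakdown, 9 were higher and 1 lower, with a median log2 fold change of 0.84, such as the lipases Mgll (1.38) and Pnpla2 (0.79) and the droplet proteins Plin5 (1.76) and Cidea (1.72). Of 20 genes of fatty acid and triglyceride synthesis, 10 were higher and 2 lower, with Dgat2 at 2.38, Gpam at 1.15, the transcription factor Mlxipl at 0.70 and malic enzyme Me1 at -1.23. Of 12 genes of brown and beige adipocytes, 4 were higher, a share near that of all genes, and 1 lower, with Dio2 at 0.72, Ppargc1a at 0.64 and Prdm16 at 0.21.

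Receptors of the hormones split by gene. Cdh13, the cell surface protein that binds adiponectin, was higher in SOL (log2 fold change 0.85, limma adjusted p = 1.95e-13), with 49.6, 60.3 and 72.3 FPKM in the lowest, median and highest SOL library and 25.4, 31.5 and 36.7 FPKM in GAS. Adipor1, an adiponectin receptor, was lower (-0.83, adjusted p = 2.43e-11), with 57.7, 63.5 and 74.2 FPKM in SOL and 103, 112 and 124 FPKM in GAS. In FPKM the SOL and GAS libraries did not overlap for either gene, a split that was not counted over all genes and from which nothing is read. Tlr4, to which resistin can bind, was higher in SOL (1.21) and C3, the complement protein on whose pathway adipsin acts, was lower (adjusted p = 3.52e-06). Lepr, the leptin receptor, did not pass (-0.12, adjusted p = 0.225). Of the 11 genes of this list, 4 were higher and 4 lower.

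Markers of other cells moved between the muscles beside the 9 genes. Of 10 endothelial markers 8 were higher and 0 lower in SOL, and their summed level was 144 to 218 FPKM in the SOL libraries and 90.8 to 140 FPKM in the GAS libraries. Over all groups, all 10 macrophage markers were lower in SOL (43.2 to 102 FPKM summed in SOL, 66.1 to 152 in GAS). By group this differed with age: 0 of 10 were lower in SOL YC/GAS YC, where their median log2 fold change was -0.07. In SOL YE/GAS YE 1 was lower, in SOL OC/GAS OC 10 and in SOL OE/GAS OE 7. Of the tendon markers, 5 of 8 were higher and 1 lower (165 to 673 FPKM in SOL, 64.3 to 334 in GAS). Of the fibro-adipogenic progenitor genes, 7 of 14 were lower and 1 higher (648 to 1254 FPKM in SOL, 860 to 1426 in GAS). Of 8 Schwann cell markers 5 were lower, of 10 lymphocyte markers none passed, of 8 erythroid markers 2 were lower, of 5 epidermal markers 2 were higher and 1 lower, and of 10 muscle fiber markers 4 were higher and 3 lower. None of the macrophage, endothelial, tendon or progenitor genes was under 0.1 FPKM in every library. The part of these cells in the values of Fabp4 and Pparg, which are not confined to adipocytes, was not tested.

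Ratios between members were then compared, because a ratio to Adipoq in the same library does not depend on how much adipocyte RNA that library holds if both come from adipocytes alone. The ratio was computed as log2 of (FPKM + 0.1) over (Adipoq FPKM + 0.1). SOL was set against GAS of the same mouse, paired by library number, by an exact sign flip test over 12 mice. The p was adjusted over the 40 ratio tests computed. Of these, 16 set old against young libraries, the contrast on which the genes were chosen, so the p adjusted over the other 24 alone, an adjustment added after the ratios had been seen, is given too. Plin1/Adipoq was higher in SOL in 11 of 12 mice, by 0.81 on the log2 scale or 1.75-fold (exact p = 0.000977, adjusted p = 0.0173 over 40 tests and 0.0117 over 24). The plain FPKM ratio was 0.62 ± 0.0633 in SOL and 0.355 ± 0.0952 in GAS (SD, n = 12 each), and its range, 0.552 to 0.721 in SOL against 0.21 to 0.551 in GAS, only just did not overlap. The highest GAS ratio was that of OE replicate 3, where Adipoq was at 0.833 FPKM, and the next was 0.453. How many other genes have ratios that part the muscles in this way was not counted.

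Lep/Adipoq was higher in SOL in 12 of 12 mice, by 0.71 or 1.64-fold (exact p = 0.000488, the smallest that 4096 sign flips give, adjusted p = 0.0173 over 40 tests and 0.0117 over 24), with plain ratios of 0.177 ± 0.0506 in SOL and 0.0971 ± 0.035 in GAS. With 1 FPKM added instead of 0.1 the difference was 0.24 and did not pass (adjusted p = 0.4). Against Plin1 in place of Adipoq it was -0.10 (adjusted p = 0.655). Retn/Adipoq was lower in SOL by 0.25 in 10 of 12 mice and did not pass (exact p = 0.00928, adjusted p = 0.053 over 40 tests and 0.0742 over 24). The other differences were -0.43 for Fabp4, -0.06 for Adig, -0.04 for Cfd, 0.11 for Cidec and 0.37 for Pparg, and none passed.

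**Figure D4:**
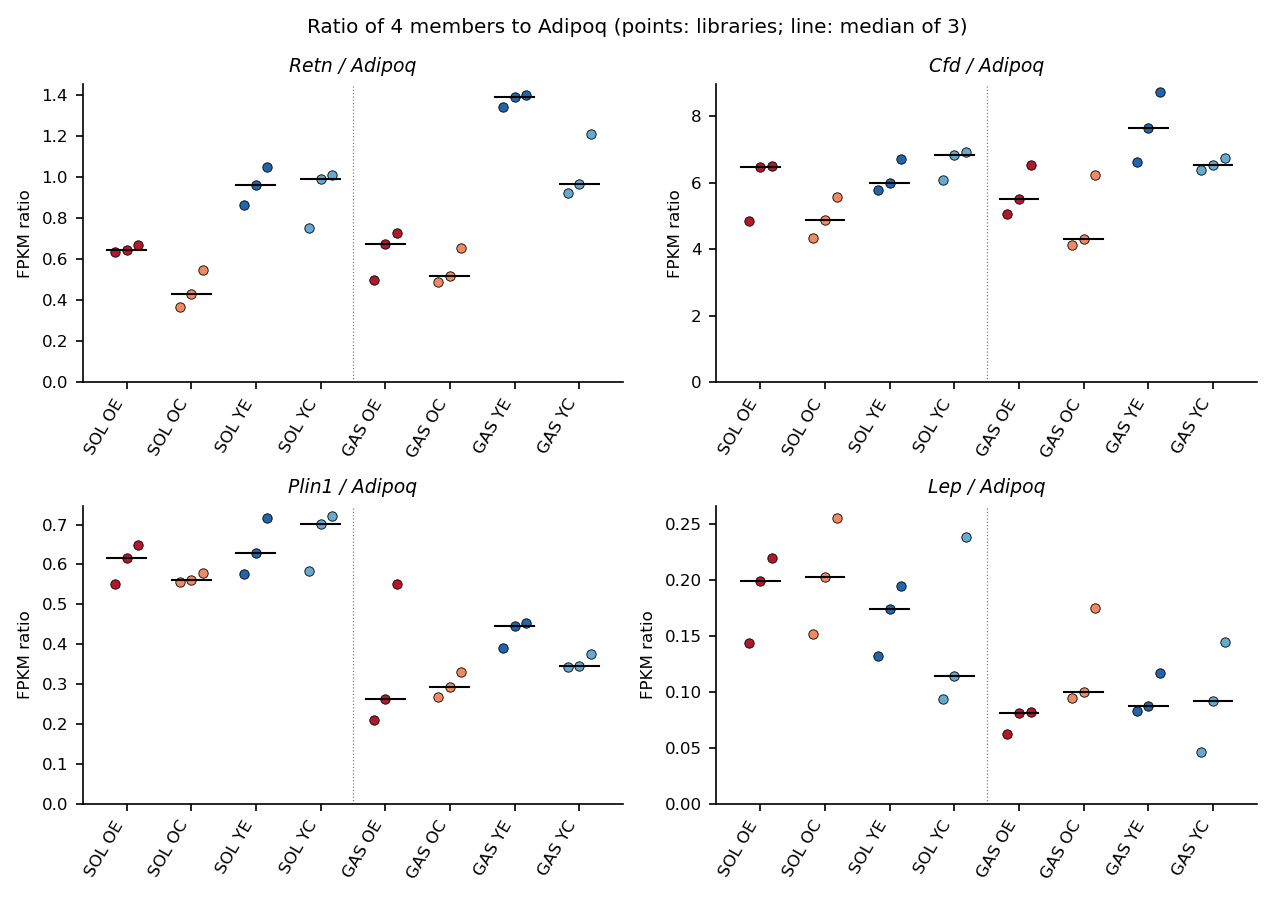
FPKM of Plin1, Lep, Retn and Cfd over FPKM of Adipoq in the same library, 1 point per library, by muscle and group, with a line at the median of 3. Plin1/Adipoq lies between 0.552 and 0.721 in SOL and between 0.21 and 0.551 in GAS, and Retn/Adipoq lies at 0.368 to 0.67 in old SOL and 0.752 to 1.05 in young SOL.

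The second tested comparison asked whether 4 weeks of exercise changed the adipocyte genes. None of the 9 passed by limma in SOL YE/YC, SOL OE/OC, GAS YE/YC or GAS OE/OC, where 0, 0.00532, 0.016 and 0.016% of all genes passed. Nor did any pass with both ages together, where 0.00532% of all genes passed in SOL and 0.0266% in GAS. At an unadjusted p under 0.05 the counts of the 9 were 1 in SOL YE/YC, 1 in SOL with both ages and 0 in the other 4, and with an ordinary equal-variance test per gene the adjusted count was 0 in all 6. Over all genes, 1704 of 18795 had an unadjusted p under 0.05 in SOL YE/YC, 1587 in SOL with both ages and 830 in GAS YE/YC. The counts of 1 of 9 in SOL were near these shares of all genes.

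Adig was the gene at an unadjusted p under 0.05. It was at 10.2, 10.4 and 9.69 FPKM in SOL YE, against 5.39, 6.65 and 5.30 FPKM in SOL YC, and at 6.29, 8.29 and 7.23 FPKM in SOL OE, against 6.61, 8.42 and 6.69 FPKM in SOL OC. All 3 YE muscles were above all 3 YC muscles, while the old groups overlapped. Such a split was not counted over all genes, so nothing is read from it. The log2 fold change was 0.74 in SOL YE/YC (SE 0.12, limma adjusted p = 0.1) and -0.00 in SOL OE/OC (SE 0.12, adjusted p = 1). The difference between these effects was -0.74 (SE 0.16, limma adjusted p = 0.458). In GAS, Adig was at 5.50, 8.98 and 3.86 FPKM in YE, against 3.07, 2.96 and 6.35 FPKM in YC, which overlapped.

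With both ages together, the 9 log2 fold changes had a median of 0.38 in SOL and -0.10 in GAS, and Adig had 0.37 in SOL (SE 0.08, limma adjusted p = 0.255). The other 8 genes had log2 fold changes from 0.19 (Pparg) to 0.89 (Retn) in SOL YE/YC, with standard errors of 0.22 to 0.59 and limma adjusted p from 0.713 to 0.923. All 9 were above 0 with a median of 0.74. This median depended on single YC libraries: it was 1.44 without SOL YC replicate 2, the muscle with 43.0 FPKM of Adipoq, 0.49 without replicate 1 and 0.34 without replicate 3, where Pparg stood at -0.08, and 0.37 with the number as a replicate block, with 0 of 9 passing in each. In SOL OE/OC the values lay between -0.11 (Lep) and 0.49 (Retn), in GAS YE/YC between -0.21 (Pparg) and 0.38 (Adig), and in GAS OE/OC between -0.33 (Cidec) and 0.13 (Adig). With standard errors of up to 1.00 in GAS (Cfd), a 2-fold change of Cfd would not have been detectable there. Interaction terms for exercise between ages and between muscles passed for none of the 9 (smallest limma adjusted p = 0.458).

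The ratios to Adipoq did not pass for exercise either, in SOL or in GAS, with exact p of 0.214 or more in 6 against 6 libraries. Splits made within each age, added after the ratios had been seen, gave Retn/Adipoq 0.31 higher on the log2 scale in exercised than in control SOL (exact permutation p = 0.05) and 0.32 higher in exercised than in control GAS (exact permutation p = 0.025), and both had an adjusted p of 0.4 over 16 such tests. In SOL the difference was 0.55 in old mice, whose exercised and control muscles did not overlap, and 0.07 in young mice. In GAS the difference was 0.23 among old mice and 0.42 among young mice, whose exercised and control muscles did not overlap. The GAS value depended on the reference, with 0.13 against Plin1 (exact permutation p = 0.655) and 0.12 against the mean of the other 8 genes (exact permutation p = 0.765). Exercised and control muscles also did not overlap for Pparg/Adipoq in young SOL and Plin1/Adipoq in young GAS. Such splits were not counted over all genes, so nothing is read from them.

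The genes of the 14 lists beside the 9 did not pass for exercise in any of the 6 comparisons, with the exception of erythroid genes in GAS, where Hba-a2 was lower in exercised than in control muscles with both ages together (log2 fold change -6.15, limma adjusted p = 0.000237). Hba-a2 has a near-identical copy, Hba-a1, and how their reads were divided is uncertain. In SOL YE/YC the median log2 fold change was 0.32 for other adipocyte genes, 0.22 for fatty acid and triglyceride synthesis, -0.13 for endothelial, -0.11 for macrophage and -0.35 for tendon markers, and -0.00 for all genes.

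The old and young muscles are described only. None of the 9 genes was called in SOL OC/YC, GAS OC/YC, SOL OE/YE or GAS OE/YE, where 4.36, 0.0426, 2.78 and 0.165% of all genes were (limma, adjusted p under 0.05, either direction). The genes were chosen on this contrast, so nothing is read from these counts. Their median log2 fold changes were -0.62, -0.72, -1.46 and -1.04, and the only value above 0 among the 36 was Adig in SOL OC/YC, at 0.34.

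Retn, the resistin gene, had the lowest fold change of the 9 in each of these 4 contrasts. In SOL, Retn was at 8.78, 8.41 and 4.93 FPKM in OE, 4.65, 4.05 and 5.99 FPKM in OC, 45.8, 26.9 and 22.7 FPKM in YE, and 11.2, 43.4 and 7.90 FPKM in YC. In GAS it was at 3.71, 17.4 and 0.417 FPKM in OE, 2.26, 9.18 and 3.27 FPKM in OC, 13.6, 41.7 and 10.6 FPKM in YE, and 15.2, 21.0 and 9.86 FPKM in YC. Old and young muscles overlapped in both. The log2 fold changes were -1.57 in SOL OC/YC, -1.97 in SOL OE/YE, -1.62 in GAS OC/YC and -1.89 in GAS OE/YE, against -0.62, -1.47, -0.88 and -1.04 for Adipoq, which share the same libraries.

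Relative to Adipoq, the old and young muscles did not overlap for Retn. Retn/Adipoq was 0.633, 0.644 and 0.67 in SOL OE, 0.546, 0.368 and 0.428 in SOL OC, 1.05, 0.961 and 0.866 in SOL YE, and 0.99, 1.01 and 0.752 in SOL YC. In GAS it was 0.726, 0.672 and 0.5 in OE, 0.652, 0.516 and 0.488 in OC, 1.39, 1.34 and 1.4 in YE, and 0.965, 1.21 and 0.922 in YC. The mean was 0.548 ± 0.125 in old SOL and 0.938 ± 0.11 in young SOL, and 0.592 ± 0.103 in old GAS and 1.2 ± 0.214 in young GAS (SD, n = 6 each). The mean log2 ratio was 0.79 lower in old than in young SOL and 0.99 lower in old than in young GAS. GAS OE replicates 2 and 3, with 25.8 and 0.833 FPKM of Adipoq, both lay below every young GAS library.

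The non-overlap was counted over all genes after the ratios had been seen. A ratio to Adipoq that was lower in old muscles without overlap was found for 4 genes in SOL, which is 0.0373% of 10717, namely Retn, Cdo1, Orm1 and Slc36a2. It was found for 3 genes in GAS, 0.028%, namely Retn, Cfd and Apoc1. A ratio that was higher in old muscles without overlap was found for 99 genes in SOL, 0.924%, and for 2 genes in GAS, 0.0187%, and none of the 9 was among them. The level itself was lower without overlap for 2.85% of 10718 genes in SOL and 1.34% in GAS, and higher without overlap for 5.7% in SOL and 1.86% in GAS, and the 9 were in none of these. Cfd/Adipoq was 5.29 ± 0.992 in old GAS and 7.11 ± 0.906 in young GAS, and 5.43 ± 0.905 in old SOL and 6.38 ± 0.489 in young SOL (SD, n = 6 each), where it overlapped. The plain Cfd/Adipoq ratios of GAS touched, at 4.12 to 6.54 in old and 6.39 to 8.72 in young muscles, and the groups parted only with the 0.1 FPKM added. These counts come from the contrast that led to the choice of the genes, and nothing is drawn from them.

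Other members went the other way relative to Adipoq. The mean log2 ratio was higher in old than in young SOL by 1.00 for Adig, 0.54 for Pparg, 0.48 for Fabp4 and 0.36 for Lep, and in GAS by 0.96, 0.90, 0.92 and 0.28, with overlap in every case. The GAS values of Adig, Pparg and Fabp4 rested on OE replicate 3, the library with 0.833 FPKM of Adipoq, and without it were 0.37, 0.47 and 0.44. That of Lep was 0.11 without GAS YC replicate 3. Plin1 was lower by 0.15 in SOL and 0.31 in GAS, and Cidec by 0.25 in SOL, with -0.00 in GAS. Adig, Fabp4 and Pparg are the genes whose level at an Adipoq of 0 was furthest above 0.

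A last comparison asked whether a mouse with high adipocyte RNA in one muscle also had it in the other. Pearson r between SOL and GAS over the 12 mice ran from 0.15 (Pparg) to 0.66 (Retn), and none of the 9 passed after adjustment. Retn had r = 0.66 (permutation p = 0.0179, adjusted p = 0.161) and rho = 0.75 (permutation p = 0.00678, adjusted p = 0.061), and r = 0.69 without the 2 mice farthest from the median. Within old and within young mice, 6 each, its r was 0.35 (exact permutation p = 0.504) and 0.39 (exact permutation p = 0.454), both positive and lower than the pooled value, with too few mice to tell whether the relation holds within an age. Adipoq had r = 0.45 (permutation p = 0.145, adjusted p = 0.232) and rho = 0.45 (permutation p = 0.14, adjusted p = 0.267), r = 0.52 without the 2 farthest mice, and r = 0.65 in old and 0.05 in young mice. The pooled permutations exchanged mice across ages, so the pooled r and p also hold the difference between old and young mice. As the genes were chosen on that difference, nothing is read from them. With group means removed, r of the 9 genes lay between -0.03 and 0.32, with 0.29 for Retn (permutation p = 0.352). Mice were paired by library number, which is less certain for the old mice. The highest SOL libraries were YC replicate 2 and YE replicate 1, and the highest GAS libraries were YE replicate 2 and OE replicate 2.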

How the data were processed

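Whole soleus and gastrocnemius of 12 mice were sequenced (TruSeq stranded mRNA, NovaSeq). The authors used HISAT2 2.1.0 for alignment to mm10 and StringTie 1.3.4d for quantification; the role of BWA, Bowtie, Bowtie2, HISAT, SAMtools and STAR, also named in the submitters' processing notes, is not given in the sources used here. The deposited table gives FPKM per gene and library and log2 values that the authors made from FPKM + 1 by quantile normalization over all 24 libraries, which was recomputed within 5e-09. The authors' columns of linear fold, p-values, adjusted p-values, a test score and log2 group means were not used. Groups came from the sample labels.

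Log2 values were tested with limma 3.58.1 (R 4.3.3; intensity trend, Benjamini-Hochberg over 18795 genes, called under 0.05), within a muscle for exercise and age and over 24 libraries for SOL/GAS. Fold changes are on the log2(FPKM + 1) scale, which understates changes of low genes. Ratios and relations used exact or 100000-resample permutation tests (Python 3.11.15, scipy 1.17.1), two-sided, as were all tests. The tests were checked on simulated data. SOL and GAS libraries of a group with the same number were taken as 1 mouse, since each group had 3 mice. Within a muscle the numbers pair no mice. Same-numbered deviations had r of 0.09 to 0.36 between SOL and GAS in young mice and -0.03 to 0.12 in old mice. The own number was the best partner in the group for all young pairs, but among old pairs only for OC number 3. The pairing of old mice is thus less certain.

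The members and lists were chosen with earlier results of these data known. All members were named, with up to 4 genes per list by smallest adjusted p and the 10 genes most like the members; further genes were named after their values were seen. Promoters and positions are from RefSeq (GRCm38.p6). No per-sample column of the table was left unused. FPKM carry no counts, so precision is shown by replicates only.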

Additional observations from a re-analysis of the deposited data

How the results depend on the processing

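The counts of adipocyte genes called were recomputed under up to 7 alternatives per comparison, and 92 of 104 counts stayed within 1.5 times. SOL/GAS over all groups gave 5 of 9 under all 7 alternatives, including the mouse as a replicate block, and 4 to 7 when 1 library was left out. Without quantile normalization, and with it done within each muscle, the count became 1 instead of 0 in SOL YC/GAS YC (Pparg), 5 instead of 2 in SOL YE/GAS YE, 2 instead of 0 in SOL OC/GAS OC and 2 instead of 0 in SOL OE/GAS OE. In SOL YE/GAS YE it was 0 with an equal-variance test of each gene, 1 with limma on the libraries compared and 2 with the replicate block, and in SOL OC/GAS OC it was 1 with a filter on low values. Over all groups, 8707 of all 18795 genes were higher in SOL without quantile normalization and 8797 with it done within each muscle, against 5350. In SOL YE/GAS YE 6165 were higher without it, against 3286. The cause of the changed counts was not tested. Leaving out 1 library gave 0 to 4 in SOL YE/GAS YE, 0 to 1 in SOL YC/GAS YC, 0 to 1 in SOL OC/GAS OC, 0 to 2 in SOL OE/GAS OE and 0 to 6 in SOL OE/YE (6 without SOL YC replicate 2, which is outside that contrast), an age contrast from which nothing is read. All exercise counts were 0 under each alternative, including the number as a replicate block in YE/YC of both muscles; OE and OC share only 1 number and could not be fitted with it.

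Of 40 ratio tests, 2 of those on muscle or exercise passed, 2 with the p adjusted over the 24 muscle and exercise tests alone (added after seeing the data), 2 to 3 without 1 library and 5 with Plin1 as the reference, under which Lep changed sign between SOL and GAS (-0.10). Of 3033 single values, 113 changed sign, none of them called. Over all genes, calls in SOL OC/YC fell to 1 with the equal-variance test and 8 with limma on the libraries compared, against 820, and in SOL OE/YE to 0 and 6, against 523, or 298 without quantile normalization. In GAS OC/YC they ran from 1 to 26, against 8, and in GAS OE/YE from 1 to 48, against 31. In SOL YC/GAS YC they were 4784 with the equal-variance test, against 7198, in SOL YE/GAS YE 4218, against 6430, and in SOL OE/GAS OE 3826, against 7271. Exercise calls over all genes stayed between 0 and 5. Without quantile normalization the median of all genes moved by 0.11 in SOL YC/GAS YC, and 81.4% of the genes called there were higher in SOL, against 49.4%. Depth is unknown, so no limit of detection was set.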
